A study of Mus musculus with 10 samples.

Results

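Potassium channel subunits were taken as the rows of the deposited count table whose symbol begins with Kcn and ends in a family letter and number. Of 84 such rows, 4 were left out: Kcnj10 and Kcnj16, which astrocytes express, and Kcne2 and Kcnj13, which choroid plexus expresses. That leaves 80 of the 20156 rows of the table. They comprise 39 pore-forming subunits of voltage-gated channels, 10 auxiliary subunits of those channels, 10 inward rectifiers, 11 subunits of calcium-activated and related channels, and 10 two-pore channels. The values come from RNA of whole hippocampus of 5 TfamAKO and 5 WT mice, all aged 6 months, with 1 library per mouse. Tfam encodes the protein that packages mitochondrial DNA and starts its transcription. The series title places the study in astrocytic mitochondria, and the labels give neither the promoter that drives the deletion, the allele nor the strain, sex or litter.

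Potassium channels let potassium leave the cell and so bring the membrane back towards its resting voltage. Voltage-gated channels end the action potential and set how fast a neuron can fire again. Inward rectifiers and two-pore channels hold the resting potential, and calcium-activated channels follow calcium entry and lengthen the pause after a spike. In hippocampus most of these genes are neuronal, while a few are known from microglia, astrocytes or vessel walls. Because the tissue was measured as a whole, fewer cells of a type and less RNA per cell cannot be told apart.

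Library depth was 19558377 to 28675367 counts in TfamAKO and 16584245 to 26032470 counts in WT. Tfam itself was at 23.6, 22.7, 19.6, 23.1 and 23.4 CPM in TfamAKO 1 to 5, against 31.7, 33.0, 20.6, 32.5 and 30.4 CPM in WT 1 to 5, and it was lower in TfamAKO by edgeR (adjusted p = 0.0204, log2 fold change -0.40 ± 0.12). WT 3 lay among the TfamAKO libraries, and the other WT libraries lay above them. Several libraries stand apart. WT 3, 4 and 5 held choroid plexus transcripts, with a summed level of the 10 markers of 5748, 4278 and 2851 CPM (counts scaled to the effective library size and not to transcript length), against 48.3 and 168 CPM in WT 1 and 2. In TfamAKO the same sum ran from 42.9 to 136 CPM. TfamAKO 4 and 5 carried the Y-linked transcript Kdm5d at 22.7 and 22.4 CPM, and the other 8 libraries carried it below 1 CPM. TfamAKO 5 also had a summed level of 588 CPM for 9 genes known from cortical neurons, a list chosen after the data were seen, against 207 to 284 CPM in TfamAKO 1 to 4 and 368 to 456 CPM in WT. Its level of C1ql2, a marker of dentate granule cells, was 38.4 CPM, against 119 to 161 CPM in TfamAKO 1 to 4 and 74.3 to 112 CPM in WT.

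Of the 80 subunits, 75 had enough counts to be tested, and more of them were lower than higher in TfamAKO. Past an adjusted p of 0.05 in edgeR's two-sided quasi-likelihood test, 6 of 75 (8.0%) were higher and 17 of 75 (22.7%) were lower. Over all 16180 genes tested, 37.4% passed, 20.8% higher and 16.6% lower. The median log2 fold change (TfamAKO minus WT) was -0.25 over the members and -0.02 over all genes tested. Most changes were small, and Kcnk6 (higher) and Kcnj14 (lower) were among the few members past the threshold that moved more than 2-fold. The groups did not overlap for 5 members above WT and 8 members below WT, against 14.5% and 9.43% of all genes tested. Neuron markers moved with the members that fell. Their summed level over 9 genes ran from 5255 to 6520 CPM in TfamAKO and from 6860 to 7470 CPM in WT, with 5 of 9 lower and 0 higher past the threshold. Their median log2 fold change was -0.27, and their part in the members' fall was not tested.

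**Figure D1:**
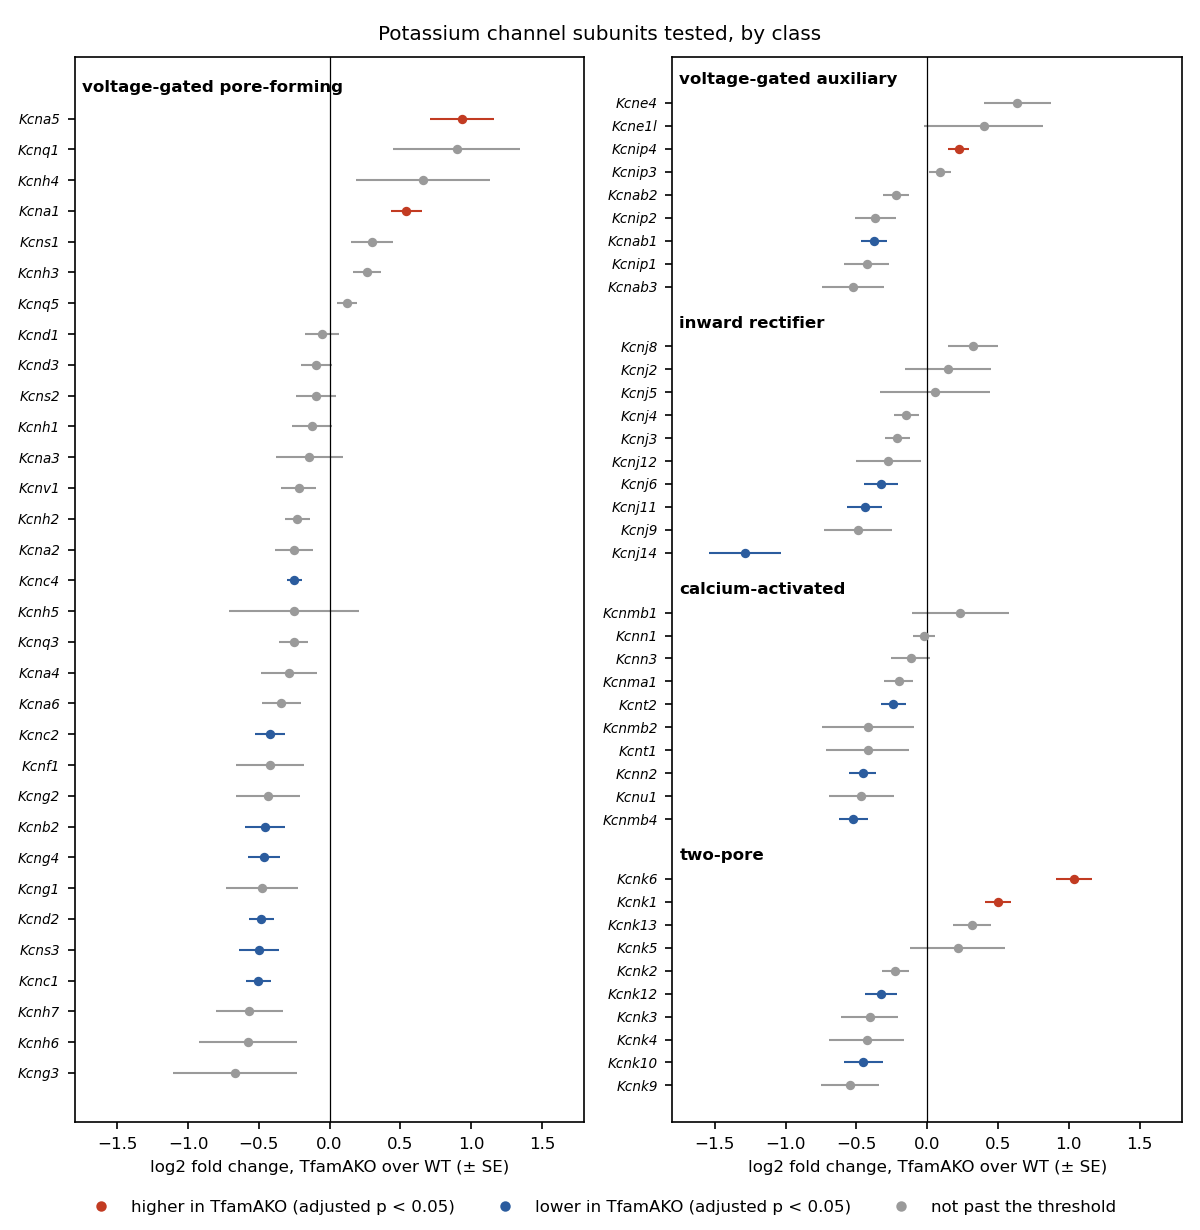
Log2 fold change (TfamAKO over WT, horizontal axis, ± SE) of 71 of the 75 tested members, grouped by class. Red points are the 5 of them higher and blue points the 16 lower in TfamAKO past an adjusted p of 0.05, and most points lie left of 0.

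Classes differed little in their medians, and no test of a difference between classes was made. The median log2 fold change was -0.25 for voltage-gated pore-forming subunits, -0.22 for their auxiliary subunits, -0.24 for inward rectifiers, -0.33 for calcium-activated channels and -0.28 for two-pore channels. The counts of each class stand beside 20.8% higher and 16.6% lower over all genes tested. Of 36 tested voltage-gated pore-forming subunits, 3 were higher (8.3%) and 8 lower (22.2%). Auxiliary subunits had 1 of 9 higher and 1 of 9 lower (11.1% each). Inward rectifiers and calcium-activated channels each had 0 of 10 higher and 3 of 10 lower (30%). Two-pore channels had 2 of 10 higher and 2 of 10 lower (20% each). These counts are small and are not read as a difference between classes. Counts over all members rest on particular libraries. Without TfamAKO 5, 7 were higher and 31 lower, against 21.9% and 18.2% of all genes. Without TfamAKO 1, 10 were higher and 20 lower, against 23% and 20.0% of all genes. With WT 3, 4 and 5 left out, which leaves 2 WT libraries, 3 were higher and 4 lower, against 12% and 4.48%. In that fit 5 of the 23 calls were kept, among them those of Kcnmb4, Kcnk1, Kcnk6 and Kcnc1. Without TfamAKO 4 and 5, 7 were higher and 28 lower, against 17.5% and 12.7%.

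**Figure D2:**
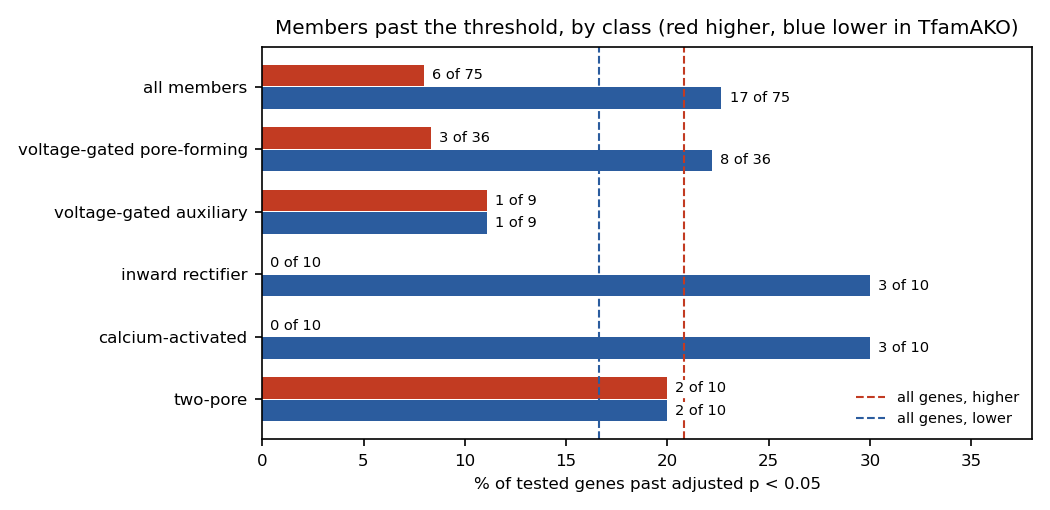
Share of tested members past an adjusted p of 0.05 (horizontal axis, %), higher (red) and lower (blue) in TfamAKO, for all members and each class. Dashed lines mark the shares over all genes, 20.8% higher and 16.6% lower, and the share of members that were higher lies left of the red line in every class.

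Among voltage-gated pore-forming subunits, the Kv1 genes Kcna1 and Kcna5 were among those that rose. Kcna5 encodes Kv1.5, a delayed rectifier of smooth muscle that is also found in glia. It was at 3.60, 3.92, 6.19, 5.98 and 8.77 CPM in TfamAKO 1 to 5, against 2.77, 3.10, 3.22, 2.76 and 3.07 CPM in WT 1 to 5. The groups did not overlap, and the TfamAKO values spread more widely than the WT values (log2 fold change 0.94 ± 0.23, edgeR adjusted p = 0.00731). Kcna1 encodes Kv1.1, which sits in axons and restrains repetitive firing. It was at 81.3, 89.5, 96.4, 104 and 104 CPM in TfamAKO 1 to 5, against 51.4, 80.6, 65.6, 61.6 and 67.2 CPM in WT 1 to 5. Here TfamAKO 1 was only just above WT 2, the highest WT library (log2 fold change 0.54 ± 0.11, edgeR adjusted p = 0.00246).

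Markers of vessel walls and microglia were also higher in TfamAKO, and their part in these rises was not tested. The summed level of 5 pericyte and smooth muscle markers ran from 203 to 285 CPM in TfamAKO and from 139 to 195 CPM in WT, with 4 of 5 higher and 0 lower past the threshold. The sum of 7 microglial markers ran from 567 to 695 CPM in TfamAKO and from 315 to 369 CPM in WT, with 6 of 7 higher and 0 lower. Astrocyte markers had 4 of 6 higher and 1 lower, and endothelial markers had 4 of 5 higher and 0 lower. No defining marker of these lists was at 0 in all libraries.

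The other Kv1 subunits did not pass. Kcna2, the Kv1.2 partner of Kcna1 in axons, was at 148, 131, 131, 137 and 209.7 CPM in TfamAKO 1 to 5, against 204, 193, 181, 144 and 177 CPM in WT 1 to 5, where TfamAKO 5 lay above every WT library and TfamAKO 2 to 4 below every one (log2 fold change -0.25 ± 0.13, edgeR adjusted p = 0.165). Without TfamAKO 5 it was lower past the threshold (log2 fold change -0.40, edgeR adjusted p = 0.00596). Kcna3, Kcna4 and Kcna6, also of the Kv1 family, had log2 fold changes of -0.14 ± 0.24, -0.29 ± 0.20 and -0.34 ± 0.14.

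Kv3 channels, which repolarize quickly and let interneurons fire at high rates, were lower in Kcnc1, Kcnc2 and Kcnc4. Kcnc1 (Kv3.1) was at 178, 129, 139, 123 and 145 CPM in TfamAKO 1 to 5, against 202, 205, 203, 196 and 206 CPM in WT 1 to 5. Every TfamAKO library lay below the narrow WT range, with TfamAKO 1 the highest of them (log2 fold change -0.50 ± 0.09, edgeR adjusted p = 0.000969). Kcnc2 (Kv3.2) was at 74.3, 58.3, 64.6, 47.8 and 70.3 CPM in TfamAKO 1 to 5, against 96.0, 82.9, 77.3, 80.5 and 85.3 CPM in WT 1 to 5, again without overlap (log2 fold change -0.42 ± 0.11, edgeR adjusted p = 0.00985). Kcnc4 (Kv3.4) averaged 80.2 ± 5.05 CPM in TfamAKO, against 95.3 ± 2.94 CPM in WT (SD, n = 5 each), a small difference without overlap (log2 fold change -0.25 ± 0.05, edgeR adjusted p = 0.00406). With the choroid plexus level of each library as a covariate its log2 fold change was -0.22 (edgeR adjusted p = 0.0512). That level was high in WT 3, 4 and 5 alone and so overlaps with genotype. A call lost in this fit therefore cannot be assigned to choroid plexus tissue. Gad1, which GABAergic interneurons express, was lower as well (log2 fold change -0.72 ± 0.18, edgeR adjusted p = 0.00821), and so was Pvalb, the marker of the fast-spiking type (-0.49 ± 0.18, edgeR adjusted p = 0.0485). Gad2, also of GABAergic interneurons, did not pass (log2 fold change -0.55 ± 0.23, edgeR adjusted p = 0.0739), and TfamAKO 1, at 163 CPM, lay inside the WT range. Pvalb lay between 16.05 and 18.7 CPM in TfamAKO 1 to 4, at 34.5 CPM in TfamAKO 5 and between 28.7 and 30.7 CPM in WT, and the part of these markers in the Kv3 result was not tested.

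The somatodendritic A-type and delayed rectifier genes were lower in part. Kcnd2 encodes Kv4.2, which carries the A-type current of pyramidal cell dendrites. It was at 96.8, 76.9, 73.4, 100.1 and 80.3 CPM in TfamAKO 1 to 5, against 117, 118, 126, 118 and 119 CPM in WT 1 to 5. All TfamAKO values were below all WT values (log2 fold change -0.48 ± 0.09, edgeR adjusted p = 0.00116). Its relatives Kcnd1 and Kcnd3 had log2 fold changes of -0.05 ± 0.12 and -0.09 ± 0.11 and did not pass. The Kv2 delayed rectifier Kcnb2 averaged 12.6 ± 2.04 CPM in TfamAKO, against 17.3 ± 3.01 CPM in WT (SD, n = 5 each; log2 fold change -0.46 ± 0.14, edgeR adjusted p = 0.0237). That call was lost without TfamAKO 2 (0.0611), TfamAKO 3 (0.0621) or WT 1 (0.0546), the numbers in brackets being adjusted p.

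Kcnq3 and Kcnq5 encode subunits of the M-current, a slow current that damps repeated firing. Kcnq3 averaged 129.7 ± 8.81 CPM in TfamAKO, against 155 ± 25.4 CPM in WT (SD, n = 5 each) and did not pass (log2 fold change -0.25 ± 0.10, edgeR adjusted p = 0.0714). Kcnq5 had a log2 fold change of 0.12 ± 0.07 and did not pass. Kcnq1 had a log2 fold change of 0.90 ± 0.45 at a low level and did not pass. The antisense transcript Kcnq1ot1 lies over it, and since the deposited table does not say whether strand was used, their reads may be mixed.

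Of the electrically silent modifier subunits, which form channels with Kv2 subunits, 2 of 9 tested (22.2%) were lower and 0 higher. Over all genes tested, 16.6% were lower and 20.8% higher, and so small a count is not read as a result. The 2 lower subunits were Kcng4 (log2 fold change -0.46 ± 0.11, edgeR adjusted p = 0.00791) and Kcns3 (log2 fold change -0.50 ± 0.14, edgeR adjusted p = 0.0165). With the choroid plexus covariate neither passed (edgeR adjusted p = 0.110 for Kcng4 and 0.132 for Kcns3). Kcng4 averaged 7.03 ± 0.800 CPM in TfamAKO, against 9.67 ± 0.901 CPM in WT and Kcns3 6.495 ± 1.14 CPM in TfamAKO, against 9.15 ± 1.13 CPM in WT (SD, n = 5 each). Kcng2 was at 31.8, 29.8, 30.8, 36.0 and 13.3 CPM in TfamAKO 1 to 5, against 40.3, 25.8, 41.5, 44.1 and 40.0 CPM in WT 1 to 5, and TfamAKO 5 and WT 2 were the lowest libraries of their groups. In the EAG, ERG and ELK family (Kcnh genes) 0 of 7 tested members passed in either direction, against 37.4% of all genes tested. Their log2 fold changes ran from -0.58 (Kcnh6) to 0.66 (Kcnh4). The value of Kcnh4 rests on TfamAKO 5, without which it was -0.19 (edgeR adjusted p = 0.504). Kcnh3, an ELK channel of forebrain neurons, was nearest to the threshold (log2 fold change 0.26 ± 0.10, edgeR adjusted p = 0.0506).

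Counts in this class also moved with single libraries. Without TfamAKO 5, 15 pore-forming subunits were lower, and without TfamAKO 1, 5 were higher.

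**Figure D3:**
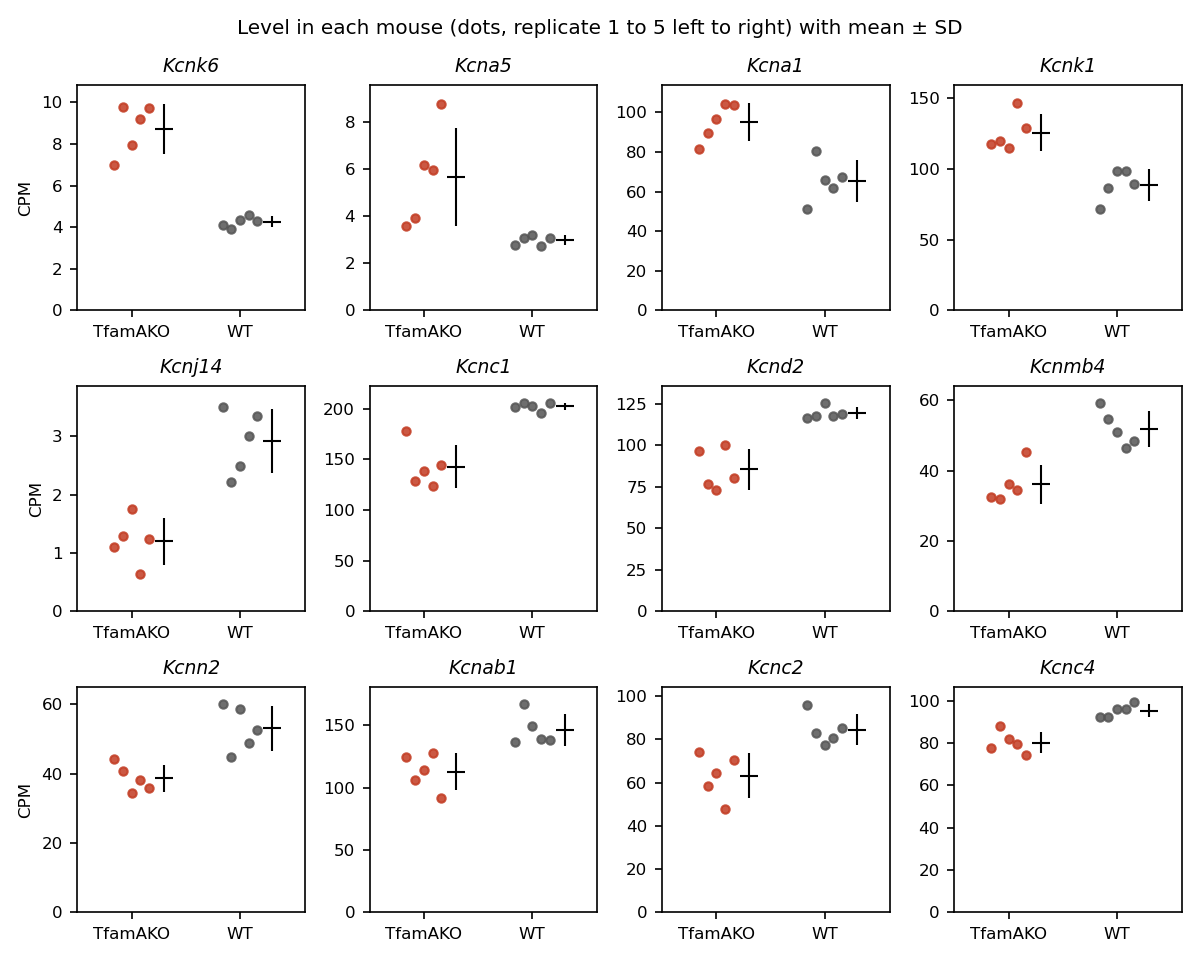
CPM of 12 members in each mouse (dots, replicate 1 to 5 from left to right, TfamAKO red and WT grey), with mean ± SD beside them and each vertical axis starting at 0. In the first 4 panels all TfamAKO dots lie above all WT dots, and in the other 8 all lie below.

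Promoter sequence was examined for the members past the threshold, to show what lies at the starts of genes that rose and fell. RefSeq promoters (build GRCm38.p6, 250 bases before and 50 after the start) were at hand for 56 of the 80 members, 77 promoters in all, and the build of the deposited table is not given. The sequences shown are those of the members with the smallest p in each direction that have 1 annotated start, Kcnk1 and Kcna5 for the rise and Kcnc1 and Kcnd2 for the fall. Capitals mark the GC box GGGCGG on either strand, to which Sp1-type factors bind.
Kcnk1 chr8:125994852-125995151 (+ strand): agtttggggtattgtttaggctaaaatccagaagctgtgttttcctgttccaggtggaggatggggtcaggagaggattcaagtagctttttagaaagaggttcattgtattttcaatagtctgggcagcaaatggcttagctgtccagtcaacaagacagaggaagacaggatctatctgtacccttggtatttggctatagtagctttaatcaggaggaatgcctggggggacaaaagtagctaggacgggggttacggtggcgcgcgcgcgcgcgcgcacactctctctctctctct
Kcna5 chr6:126535506-126535805 (- strand): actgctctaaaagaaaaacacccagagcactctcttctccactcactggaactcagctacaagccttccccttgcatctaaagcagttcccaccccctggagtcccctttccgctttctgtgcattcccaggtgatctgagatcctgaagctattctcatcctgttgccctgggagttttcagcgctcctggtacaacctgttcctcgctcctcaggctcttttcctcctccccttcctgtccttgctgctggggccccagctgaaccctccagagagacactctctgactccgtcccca
Kcnc1 chr7:46396218-46396517 (+ strand): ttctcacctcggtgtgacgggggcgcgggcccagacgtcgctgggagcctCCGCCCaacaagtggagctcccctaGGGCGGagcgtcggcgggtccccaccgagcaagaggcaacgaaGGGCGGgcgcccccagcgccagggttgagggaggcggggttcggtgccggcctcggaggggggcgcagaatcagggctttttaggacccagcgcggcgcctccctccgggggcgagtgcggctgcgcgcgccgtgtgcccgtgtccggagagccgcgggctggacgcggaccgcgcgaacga
Kcnd2 chr6:21215096-21215395 (+ strand): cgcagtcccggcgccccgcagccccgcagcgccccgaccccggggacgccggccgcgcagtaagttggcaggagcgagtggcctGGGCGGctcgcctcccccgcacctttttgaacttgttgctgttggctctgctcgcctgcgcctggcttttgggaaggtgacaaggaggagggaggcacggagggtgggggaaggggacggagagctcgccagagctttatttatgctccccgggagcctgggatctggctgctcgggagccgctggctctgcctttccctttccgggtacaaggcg
Kcnc1 holds 3 GC boxes and Kcnd2 holds 1, while the letters are absent from these windows of Kcnk1 and Kcna5. GC content was 49.0% for Kcnk1, 55.0% for Kcna5, 74.7% for Kcnc1 and 68.7% for Kcnd2. The GC box was in 0 of 4 promoters of members that rose, 11 of 20 promoters of members that fell, 52.0% of all member promoters and 35.7% of the 32851 promoters of that length. Some members have several promoters in these counts. The 4 promoters belong to 3 of the 6 members that rose, and the 20 to 12 of the 17 that fell. No promoter was at hand for Kcnk6 or Kcna1, and Kcnk1 and Kcna5 were the only members that rose with 1 annotated start. With so few members that rose, the counts do not compare the promoters of rising and falling genes. The STAT motif TTCNNNGAA was in 7 of 77 member promoters (9.09%) and 8.30% of all promoters, the ATF4-type motif TGATGNAA in 1 of 77 (1.30%) and 3.97%, and TATAAA in 2 of 77 (2.60%) and 13.6%. TTCAGCACC, the left part of the site of the repressor REST, was in 1 of 77 (1.30%) and 0.371%. All motifs were searched on both strands, and none of the listed motifs other than the GC box was in the 4 sequences above.

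Auxiliary subunits of voltage-gated channels had 1 of 9 tested genes higher and 1 lower. Kcnab1, a cytosolic beta subunit that speeds the inactivation of Kv1 channels, was at 124, 106, 114, 128 and 91.7 CPM in TfamAKO 1 to 5, against 137, 167, 149.7, 139 and 138 CPM in WT 1 to 5. No TfamAKO library reached the WT range, TfamAKO 5 being the lowest (log2 fold change -0.37 ± 0.09, edgeR adjusted p = 0.00796). Kcnab2, the beta subunit that helps Kv1 channels reach the axon, averaged 797 ± 100.1 CPM in TfamAKO, against 928 ± 82.9 CPM in WT (SD, n = 5 each) and did not pass (log2 fold change -0.22 ± 0.09, edgeR adjusted p = 0.0739). Kcnip genes encode calcium-binding partners of Kv4 channels. Kcnip4 averaged 44.4 ± 3.69 CPM in TfamAKO, against 38.05 ± 2.70 CPM in WT (SD, n = 5 each), and its rise was small (log2 fold change 0.22 ± 0.07, edgeR adjusted p = 0.0324). That call was lost without TfamAKO 2 (0.0646), TfamAKO 4 (0.0591), TfamAKO 5 (0.0590), WT 2 (0.0549), WT 4 (0.0572) or WT 5 (0.103), the numbers in brackets being adjusted p. Kcnip2, the partner of Kcnd2 in pyramidal cells, was at 96.6 CPM in TfamAKO 5, between 157 and 196 CPM in the other TfamAKO libraries and between 185 and 219 CPM in WT (log2 fold change -0.37 ± 0.14, edgeR adjusted p = 0.0635). Kcnip3 did not pass (log2 fold change 0.09 ± 0.08, edgeR adjusted p = 0.376), nor did Kcnip1 (-0.43 ± 0.16, edgeR adjusted p = 0.0524), Kcnab3 (-0.52 ± 0.22), Kcne4 (0.64 ± 0.24) or Kcne1l (0.40 ± 0.42). With the DESeq2 Wald test Kcnip1 (adjusted p = 0.0300), Kcnip2 (0.0433), Kcnab3 (0.0491) and Kcne4 (0.0499) passed. With the replicate block Kcnip1 (edgeR adjusted p = 0.0481), Kcnip2 (0.0477) and Kcnab3 (0.0329) did. Kcnip1 and Kcnip2 also passed on the deposited normalized values (limma adjusted p = 0.0495 and 0.0456). With single libraries left out, 0 to 2 auxiliary subunits were higher and 1 to 4 lower, with 0 higher without TfamAKO 2, 4 or 5 or WT 2, 4 or 5 and 2 higher without TfamAKO 1. The 4 lower were found without TfamAKO 5, 3 without TfamAKO 4, and 2 without TfamAKO 1.

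Inward rectifiers fell in 3 of 10 tested genes. The largest fall of any member past the threshold was that of Kcnj14, which encodes the strong rectifier Kir2.4. It was at 1.10, 1.29, 1.748, 0.634 and 1.23 CPM in TfamAKO 1 to 5, against 3.504, 2.22, 2.50, 2.995 and 3.34 CPM in WT 1 to 5. The groups did not overlap, at a low level in every library (log2 fold change -1.29 ± 0.25, edgeR adjusted p = 0.00215). Kcnj11 encodes Kir6.2, the pore of the neuronal KATP channel that opens when ATP falls. It was at 30.8, 28.5, 29.7, 29.4 and 46.5 CPM in TfamAKO 1 to 5, against 42.5, 44.2, 45.7, 45.01 and 46.6 CPM in WT 1 to 5. TfamAKO 1 to 4 lay below all WT libraries, and TfamAKO 5 lay inside the WT range (log2 fold change -0.44 ± 0.12, edgeR adjusted p = 0.0149). With the choroid plexus covariate it did not pass (log2 fold change -0.38, edgeR adjusted p = 0.112). Abcc8, the sulphonylurea receptor that assembles with Kcnj11, was also lower (log2 fold change -0.65 ± 0.14, edgeR adjusted p = 0.00409). Kcnj8, the KATP pore of pericytes, had a log2 fold change of 0.33 ± 0.18 and did not pass.

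G protein-gated (GIRK) subunits, which carry the slow inhibition evoked by GABA-B receptors, had 1 of 4 tested genes lower, against 16.6% of all genes tested. Kcnj6 (GIRK2) averaged 21.2 ± 4.12 CPM in TfamAKO, against 26.6 ± 2.10 CPM in WT (SD, n = 5 each; log2 fold change -0.33 ± 0.12, edgeR adjusted p = 0.0492). That call was lost without TfamAKO 2 (0.120), TfamAKO 3 (0.115), TfamAKO 4 (0.0558), TfamAKO 5 (0.0917), WT 1 (0.0988), WT 2 (0.0634), WT 3 (0.100), WT 4 (0.0532) or WT 5 (0.0770), the numbers in brackets being adjusted p. Kcnj3 (GIRK1) averaged 113 ± 16.7 CPM in TfamAKO, against 131 ± 5.04 CPM in WT (SD, n = 5 each; log2 fold change -0.21 ± 0.09, edgeR adjusted p = 0.0751), and without TfamAKO 1 it was lower past the threshold. Kcnj9 (GIRK3) was at 79.9, 48.4, 65.2, 45.1 and 131 CPM in TfamAKO 1 to 5, against 99.7, 103, 98.6, 109.7 and 108 CPM in WT 1 to 5, TfamAKO 5 above all WT libraries and the other TfamAKO libraries below them (log2 fold change -0.49 ± 0.24, edgeR adjusted p = 0.126). Among the remaining strong rectifiers, Kcnj4 (Kir2.3) averaged 74.0 ± 10.3 CPM in TfamAKO, against 82.0 ± 4.78 CPM in WT (SD, n = 5 each; log2 fold change -0.15 ± 0.09, edgeR adjusted p = 0.202). Kcnj2 (Kir2.1) and Kcnj12 (Kir2.2) had log2 fold changes of 0.15 ± 0.30 and -0.27 ± 0.23. Without TfamAKO 5, 5 of 10 inward rectifiers were lower past the threshold. Without TfamAKO 1 (Kcnj8) or WT 2 (Kcnj2), 1 was higher, against 0 with all libraries.

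Calcium-activated channels had 3 of 10 tested subunits lower and 0 higher. Kcnmb4 encodes the neuronal beta subunit of the BK channel, which slows its gating. It was at 32.5, 31.9, 36.1, 34.6 and 45.4 CPM in TfamAKO 1 to 5, against 59.1, 54.6, 50.9, 46.5 and 48.3 CPM in WT 1 to 5. Every TfamAKO library was below every WT library (log2 fold change -0.52 ± 0.10, edgeR adjusted p = 0.00219). An antisense transcript at this gene, Kcnmb4os2, was lower too (log2 fold change -0.97 ± 0.22, edgeR adjusted p = 0.00498), and reads of the pair may be mixed. The BK pore gene Kcnma1 averaged 144 ± 7.14 CPM in TfamAKO, against 165 ± 28.8 CPM in WT (SD, n = 5 each) and did not pass (log2 fold change -0.20 ± 0.10, edgeR adjusted p = 0.140). It was lower past the threshold without WT 4, without WT 3, 4 and 5 (edgeR adjusted p = 0.0443) and with the choroid plexus covariate (0.0180). Kcnn2 encodes SK2, the small-conductance channel of pyramidal cell spines. It was at 44.2, 40.8, 34.3, 38.2 and 35.8 CPM in TfamAKO 1 to 5, against 60.2, 44.9, 58.7, 48.9 and 52.7 CPM in WT 1 to 5. TfamAKO 1 lay just below WT 2, with no overlap (log2 fold change -0.46 ± 0.10, edgeR adjusted p = 0.00310). Its relatives Kcnn1 (log2 fold change -0.02 ± 0.08, edgeR adjusted p = 0.823) and Kcnn3 (log2 fold change -0.12 ± 0.14) did not pass. Among the sodium-activated Slack and Slick channels, Kcnt2 averaged 17.8 ± 2.02 CPM in TfamAKO, against 20.9 ± 1.04 CPM in WT (SD, n = 5 each; log2 fold change -0.24 ± 0.09, edgeR adjusted p = 0.0495). That call was lost without TfamAKO 2 (0.121), TfamAKO 3 (0.106), TfamAKO 4 (0.0688), TfamAKO 5 (0.0784), WT 1 (0.0862), WT 2 (0.0667), WT 3 (0.0799), WT 4 (0.0675) or WT 5 (0.0964), the numbers in brackets being adjusted p. Kcnt1 was at 40.5, 40.4, 34.3, 33.2 and 109 CPM in TfamAKO 1 to 5, against 76.2, 76.2, 67.9, 57.3 and 68.6 CPM in WT 1 to 5, TfamAKO 5 above every WT library and the rest of its group below them (log2 fold change -0.42 ± 0.29, edgeR adjusted p = 0.279).

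Two-pore channels, which carry background leak current, had 2 of 10 members higher and 2 of 10 lower. Both tested TWIK genes rose. Kcnk6 encodes TWIK-2, known from macrophages for the potassium efflux that precedes inflammasome activation. It was at 6.99, 9.79, 7.94, 9.19 and 9.72 CPM in TfamAKO 1 to 5, against 4.12, 3.90, 4.37, 4.61 and 4.30 CPM in WT 1 to 5. The lowest TfamAKO library was well above the highest WT library (log2 fold change 1.03 ± 0.13, edgeR adjusted p = 8.94e-05). Kcnk1 encodes TWIK-1, a channel of astrocytes and neurons. It was at 117, 119.7, 115, 147 and 129 CPM in TfamAKO 1 to 5, against 71.6, 86.5, 98.6, 98.6 and 89.1 CPM in WT 1 to 5. Again the groups did not overlap (log2 fold change 0.50 ± 0.10, edgeR adjusted p = 0.00171). Kcnk13 (THIK-1), the leak channel that sets the resting potential of microglia, averaged 10.9 ± 1.32 CPM in TfamAKO, against 8.73 ± 1.43 CPM in WT (SD, n = 5 each) and did not pass (log2 fold change 0.32 ± 0.13, edgeR adjusted p = 0.0818), except without TfamAKO 5 or WT 2.

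The falls among two-pore channels were small. Kcnk10 (TREK-2), opened by stretch and lipids, averaged 5.88 ± 0.788 CPM in TfamAKO, against 8.02 ± 1.058 CPM in WT (SD, n = 5 each; log2 fold change -0.45 ± 0.14, edgeR adjusted p = 0.0213). Kcnk12 (THIK-2) averaged 12.6 ± 1.14 CPM in TfamAKO, against 15.8 ± 2.17 CPM in WT (SD, n = 5 each; log2 fold change -0.33 ± 0.11, edgeR adjusted p = 0.0354). The call of Kcnk10 was lost without TfamAKO 2 (0.0534), TfamAKO 4 (0.0516), WT 2 (0.0536) or WT 5 (0.0536), and that of Kcnk12 without TfamAKO 2 (0.0876), TfamAKO 3 (0.0566), TfamAKO 4 (0.0680), TfamAKO 5 (0.0614), WT 3 (0.0788), WT 4 (0.0691) or WT 5 (0.0828), the numbers in brackets being adjusted p. On the deposited normalized values the log2 fold change of Kcnk10 was -0.21 and did not pass (limma adjusted p = 0.289). With the choroid plexus covariate that of Kcnk12 was -0.13 and did not pass (edgeR adjusted p = 0.452), and without WT 3, 4 and 5 it was -0.09 (edgeR adjusted p = 0.681). Kcnk2 (TREK-1) did not pass (log2 fold change -0.22 ± 0.09, edgeR adjusted p = 0.0812). The acid-sensitive TASK channels Kcnk9 (log2 fold change -0.55 ± 0.21, edgeR adjusted p = 0.0546) and Kcnk3 (log2 fold change -0.41 ± 0.20, edgeR adjusted p = 0.132) did not pass in the main test. With all libraries Kcnk9 was lower past the threshold by the DESeq2 Wald test (adjusted p = 0.0242) and with the replicate block (edgeR adjusted p = 0.0340). It also passed on the deposited normalized values (limma adjusted p = 0.0391) and with the choroid plexus covariate (edgeR adjusted p = 0.0267). Upper-quartile scaling and limma-voom called it lower too, while DESeq2 size factors and the 2 other filters did not. Kcnk3 passed in none of these fits. Kcnk4 and Kcnk5 had log2 fold changes of -0.43 ± 0.26 and 0.21 ± 0.34. The number of lower two-pore channels was 0 without TfamAKO 2, TfamAKO 4 or WT 5, 1 without TfamAKO 3, WT 2 or WT 3, and 4 without TfamAKO 5.

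The library TfamAKO 5 stood apart for a block of neuronal subunits. For 13 of 75 tested members TfamAKO 1 to 4 all lay below every WT library while TfamAKO 5 did not, against 3.46% of all genes tested. The pattern was picked after its values were seen, so the values that follow are a description. Among them are Kcnh5, Kcnt1, Kcnj12, Kcnk3, Kcnk4, Kcnj9, Kcnab3, Kcnh7, Kcnj4, Kcnk9, Kcnj11 and Kcnip1. Kcnh5, an EAG channel of neurons, was at 1.30, 1.96, 1.498, 1.51 and 7.96 CPM in TfamAKO 1 to 5, against 2.89, 3.69, 3.69, 2.88 and 4.03 CPM in WT 1 to 5. Kcnab3, a beta subunit of Kv1 channels, was at 19.1, 17.1, 15.6, 15.8 and 38.1 CPM in TfamAKO 1 to 5, against 31.2, 29.5, 27.9, 33.0 and 30.7 CPM in WT 1 to 5. In both, TfamAKO 5 was above every WT library. Kcnk9 (TASK-3) was at 38.4, 38.9, 38.6, 34.3 and 69.3 CPM in TfamAKO 1 to 5, against 92.3, 62.6, 54.0, 50.5 and 61.9 CPM in WT 1 to 5, and WT 1 was itself far above the other WT libraries. Kcnh7, an ERG channel, was at 22.5, 20.2, 17.9, 22.9 and 45.8 CPM in TfamAKO 1 to 5, against 49.8, 37.2, 40.5, 27.8 and 37.2 CPM in WT 1 to 5. For Kcnk9 and Kcnh7 TfamAKO 5 lay inside the WT range. Among other members, Kcnh4 was also highest in TfamAKO 5, at 14.1 CPM, against 1.997 to 3.27 CPM in TfamAKO 1 to 4 and 2.18 to 3.87 CPM in WT.

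**Figure D4:**
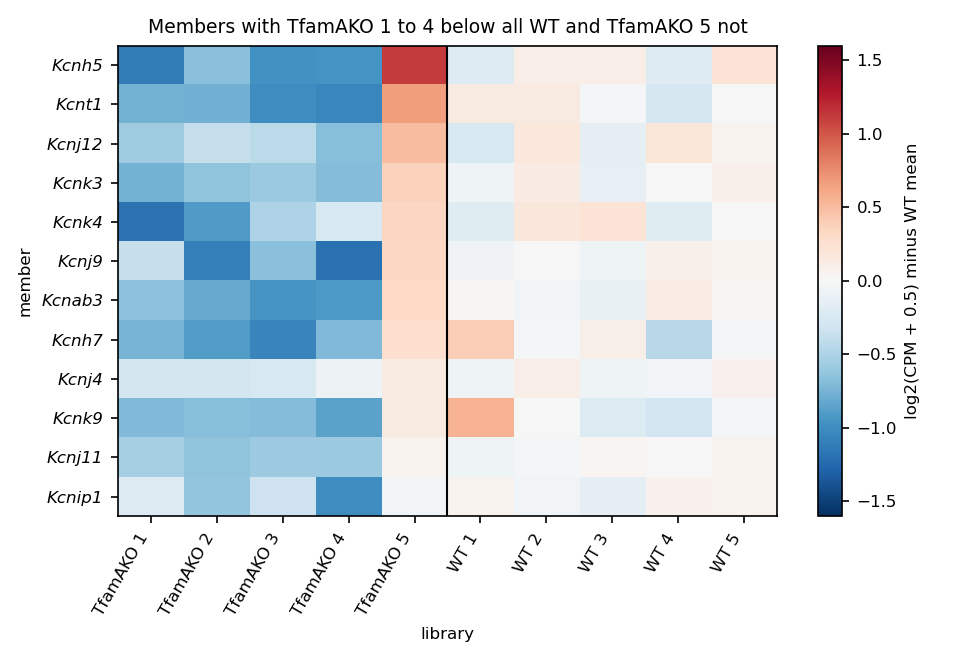
Log2(CPM + 0.5) minus the WT mean (colour) of 12 of the 13 members for which TfamAKO 1 to 4 lay below all WT libraries and TfamAKO 5 did not, by library. The TfamAKO 5 column is red to white while the 4 columns left of it are blue.

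Without TfamAKO 5 the log2 fold changes of 4 of these members were -0.90 for Kcnt1, -0.85 for Kcnab3, -0.80 for Kcnj9 and -0.70 for Kcnk3. The members were picked because TfamAKO 1 to 4 lay below all WT libraries. A test of that fit would only repeat the choice, so no p-value is given. With all 10 libraries the log2 fold changes were -0.42 ± 0.29, -0.52 ± 0.22, -0.49 ± 0.24 and -0.41 ± 0.20, none past the threshold in the main test. Cortical neuron genes moved with this block. Tbr1 was at 36.3, 28.5, 26.1, 25.5 and 99.4 CPM in TfamAKO 1 to 5, against 55.4, 63.2, 53.7, 55.0 and 59.7 CPM in WT 1 to 5, and Lamp5 at 18.8, 17.4, 20.2, 19.6 and 66.9 CPM in TfamAKO 1 to 5, against 31.9, 33.9, 32.5, 30.6 and 32.3 CPM in WT 1 to 5. Both are high in TfamAKO 5 and lower in TfamAKO 1 to 4 than in WT. Rorb, of the same list, did not share this, at 23.8, 44.8, 41.3, 39.8 and 37.9 CPM in TfamAKO 1 to 5, against 16.05, 11.6, 11.6, 13.0 and 12.6 CPM in WT 1 to 5. The part of the listed genes in the channel values was not tested. Prox1, of dentate granule cells, ran the other way, at 85.9, 58.0, 57.1, 71.0 and 34.6 CPM in TfamAKO 1 to 5, against 92.7, 59.5, 85.6, 76.5 and 78.3 CPM in WT 1 to 5. Dsp, of the same cells, did not share this and was low in every TfamAKO library.

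Of 28 tested genes among 30 listed partners, potassium transporters and related pacemaker channels, 3 were higher and 13 lower. Over all genes tested, 20.8% were higher and 16.6% lower. The median log2 fold change of the listed genes was -0.23, and those of smallest p in each direction follow. The sodium-potassium pump subunit Atp1b2 of astrocytes (0.80 ± 0.12, edgeR adjusted p = 0.000313) and Rest, a repressor of neuronal genes (0.85 ± 0.14, edgeR adjusted p = 0.000581), were higher. The pacemaker channel Hcn2 (-0.50 ± 0.07, edgeR adjusted p = 0.000240) and Amigo1, a Kv2 partner (-0.36 ± 0.06, edgeR adjusted p = 0.000886), were lower on the log2 scale.

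The members' levels can also be added up. Summed over the 80 members, the level was 4491 ± 225 CPM in TfamAKO and 5223 ± 169 CPM in WT (SD, n = 5 each), and each TfamAKO library was below each WT library. The sum of the 39 voltage-gated pore-forming subunits was 2285 ± 141 CPM in TfamAKO and 2666 ± 94.9 CPM in WT. Two-pore channels summed to 271 ± 26.6 CPM in TfamAKO and 267 ± 4.92 CPM in WT. These sums weight long and abundant transcripts and were given no test.

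Too few counts were found for 5 members. Kcnh8, an ELK channel, had 3, 5, 4, 1 and 10 counts in TfamAKO 1 to 5, against 8, 10, 7, 11 and 21 counts in WT 1 to 5. Kcnn4, the intermediate-conductance channel of microglia and blood cells, had 5, 10, 7, 17 and 8 counts in TfamAKO 1 to 5, against 3, 4, 1, 18 and 5 counts in WT 1 to 5. Kcne3, Kcna10 and Kcnv2 had at most 9 counts in any library. These genes were left out of the main test by edgeR's filter. For Kcnh8 the CPM of the groups did not overlap. It was called lower by edgeR without the filter and by the DESeq2 Wald test (adjusted p = 0.0417).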

How the data were processed

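RNA of hippocampus from 5 TfamAKO and 5 WT mice was sequenced from stranded mRNA libraries, per the labels' protocols. The authors deposited estimated counts per gene, all whole numbers, and a second table of normalized values whose making no source describes, used as a signal in alternatives alone. Salmon (no version) and DESeq2 1.26.0 are named in the submitters' processing notes. Genome build, annotation and use of strand are not given in the sources read.

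Genotypes were compared with edgeR 4.0.16 (R 4.3.3) on the deposited counts. After filterByExpr (minimum count 10) 16180 rows remained, libraries were scaled by TMM, and genotype was the only term of the two-sided quasi-likelihood test. P-values were adjusted by Benjamini-Hochberg over all genes tested, with a threshold of 0.05. Standard errors were derived from the fold change and its F statistic (size over root of F). CPM are scaled to the effective library size and not corrected for transcript length, so levels are not compared between genes. Every mouse gave 1 library, and the design text names 5 mice per genotype.

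Members, classes and lists were chosen with earlier results of these data known. Named with values were, per class, up to 6 members in each direction with the smallest p and up to 3 of the highest level among those not past the threshold. Some members count in the totals and are not reported by name here. Others were named after their values were seen, as were the cortical and dentate genes. The alternatives tried were scaling by DESeq2 size factors or the upper quartile, 2 other filters (none, or 1 CPM in 5 libraries), the DESeq2 1.42.0 Wald test, limma-voom (limma 3.58.1), limma on log2 of the deposited normalized signal with pseudocounts of 0.5, 1 and 5, a replicate block, a choroid plexus covariate, and libraries left out.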

Additional observations from a re-analysis of the deposited data

Results flagged for a closer look

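Of 150 groups of 5 libraries examined, 1 library stood far from the other 4 in 20, where chance flags about 1 in 20 groups, and 12 of the 20 concern TfamAKO 5. Among these, it was the highest of its group for Kcnt1 (109 CPM), Kcnj11 (46.5 CPM), Kcnj12 (9.94 CPM), Kcnk3 (25.7 CPM), Kcnk9 (69.3 CPM), Kcnab3 (38.1 CPM), Kcna2 (210 CPM), Kcnh4 (14.1 CPM), Kcnh5 (7.96 CPM) and Kcnh7 (45.8 CPM), and the lowest for Kcng2 (13.3 CPM). TfamAKO 1 was the highest of its group for Kcnj3 (142 CPM) and Kcne1l (10.9 CPM). Among WT libraries, WT 1 was the highest for Kcnk9 (92.3 CPM) and WT 3 for Kcnd2 (126 CPM), where the WT range was only 117 to 126 CPM. WT 2 was the highest for Kcnj2 (23.1 CPM) and Kcnmb1 (1.8 CPM) and the lowest for Kcng2 (25.8 CPM), and WT 3 was the lowest for Kcna6 (67.6 CPM). The library TfamAKO 5 also had the highest summed cortical neuron level of all 10 libraries, and the part of that difference in these values was not tested.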

How the results depend on the processing

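None of the 23 called members changed sign under any alternative run, and Kcnmb4, Kcnk1, Kcnk6 and Kcnc1 were among those called under all of them. Of the auxiliary subunits 1 was higher and 1 lower with all libraries. The number lower was 2 with DESeq2 size factors, 4 with upper-quartile scaling, 4 with the DESeq2 Wald test, 3 with limma-voom, and 3 on the deposited normalized values with each pseudocount. The number higher was 0 with upper-quartile scaling, 2 with the filter of 1 CPM in 5 libraries, and 2 with the DESeq2 Wald test. Upper-quartile scaling called 5 members higher and 23 lower, against 19.3% and 19.2% of all genes, and the DESeq2 Wald test 8 and 24, including Kcnh8 as lower, against 18.1% and 15.4%. On the deposited normalized values Kcnk10 and Kcnt2 (limma adjusted p = 0.135) were lost, without a filter Kcnt2 and Kcnj6, and with upper-quartile scaling Kcnip4. Without WT 3, 4 and 5, 2002 genes were higher and 750 lower. Among members 3 were higher and 4 lower, among pore-forming voltage-gated subunits 1 and 2 with a median log2 fold change of -0.17, among auxiliary subunits 0 and 0, and 0 inward rectifiers and 0 two-pore channels were lower. That fit has only 2 WT libraries. With the choroid plexus level as a covariate 1627 genes were lower, 0 auxiliary subunits higher and 1 inward rectifier lower, and 8 of the 23 calls were lost: Kcnj11, Kcnc4, Kcng4, Kcns3, Kcnk12, Kcnj6 (edgeR adjusted p = 0.145), Kcnt2 (0.181) and Kcnip4 (0.185). Gained as lower were 3 members, Kcnma1 (log2 fold change -0.39, edgeR adjusted p = 0.0180), Kcnk9 (-0.81, 0.0267) and Kcnq3 (-0.41, 0.0229). The choroid plexus level was high in WT libraries alone, so this covariate overlaps with genotype. Over all genes 14.8% were higher and 10.1% lower in that fit. Without TfamAKO 4 and 5, 28 members were lower, 5 pore-forming voltage-gated subunits higher, 0 auxiliary subunits higher and 5 lower, and 5 inward rectifiers lower, and the calcium-activated median was -0.22, while the calls of Kcnt2, Kcnj6, Kcnk10, Kcnk12, Kcnip4 and Kcns3 were lost. The cause of these shifts was not tested.

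Leaving out 1 library at a time gave 2839 to 3800 genes higher and 1989 to 3294 lower, and 5 to 10 members higher and 12 to 31 lower. Pore-forming voltage-gated subunits ran from 3 to 5 higher and 7 to 15 lower, auxiliary subunits from 0 to 2 higher and 1 to 4 lower, and inward rectifiers from 0 to 1 higher and 2 to 5 lower. Calcium-activated channels had 2 to 3 lower, and two-pore channels 2 to 3 higher and 0 to 4 lower. Medians ran from -0.27 to -0.20 over all members, -0.31 to -0.20 for pore-forming and -0.30 to -0.17 for auxiliary subunits, -0.26 to -0.19 for inward rectifiers, -0.33 to -0.23 for calcium-activated and -0.31 to -0.24 for two-pore channels.

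The labels do not say whether replicate numbers pair the samples. The correlations of same-numbered deviations were 0.104, 0.025, 0.023, -0.020 and -0.137, and of the 5 numbers only 1 correlated best with its own. These correlations also carry traits of single libraries, so they cannot exclude a shared litter or batch. With the replicate block 5 members were higher and 21 lower, against 19.4% and 15.7% of all genes, the calls of Kcnip4 (edgeR adjusted p = 0.0837), Kcnt2 (0.0564) and Kcnk12 (0.0522) were lost, and of the auxiliary subunits 0 were higher and 4 lower.

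Sign changes occurred among members not past the threshold. There were 7 without WT 3, 4 and 5, 6 with the covariate and 4 on the deposited normalized values at each pseudocount. Some were not small. Kcnj2, at 0.15 with all libraries, was at -0.33 without WT 3, 4 and 5 and at -0.27 with the covariate. Kcnh4, at 0.66 with all libraries, was at -0.19 without TfamAKO 5. Kcnn1 had a log2 fold change of 0.0211 on the deposited normalized values at each pseudocount, 0.0406 without WT 3, 4 and 5, 0.0068 with the covariate, 0.0021 without TfamAKO 1 and 0.0018 without TfamAKO 2, and -0.0557 at the lowest, without TfamAKO 3. Kcnip3 was at -0.0121 with the covariate. Precision is limited by 5 mice per group, and at low levels by counts.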
